A study of Mus musculus with 20 samples.

Results

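Egfl7 marked 6 libraries of subventricular zone neurospheres as either holding or nearly lacking its transcript, and the division did not follow their genotype labels. Neurospheres are floating clusters grown from neural stem and progenitor cells, and the subventricular zone (SVZ) is the stem cell niche along the lateral ventricle. The 6 SVZ libraries, of 20 in the series, were sorted by their measured Egfl7 level: 3 lay above 1 RPKM (reads per kilobase of a gene, scaled to the depth of the library) and 3 below 0.2 RPKM. The sets were chosen by the measured Egfl7 values themselves. Every difference between the sets is therefore a description of these 6 libraries with no test, and no genotype was derived from it.

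Per the labels, the SVZ spheres came from male C57BL6 mice 8 to 12 weeks old, 3 of knockout and 3 of wild type genotype, and were first-round spheres taken untreated at culture day 3 in medium with EGF and FGF at 20 ng/ml. First-round hippocampal spheres (HC1) were taken at day 5 from 3 male knockout and 3 female wild type donors, so that genotype and sex cannot be told apart there. Second-round hippocampal spheres (HC2) were taken at day 5 from 4 male knockout and 4 male wild type donors. How the Egfl7 allele was made, and whether it is absent from every cell of the knockout, is not stated in the labels. SVZ libraries are written below as KO1 to KO3 and WT1 to WT3, which is the genotype label and replicate number and not a finding. Within a genotype each SVZ library has its own mouse number in its title. The numbers 4, 5 and 6 appear once among the knockout and once among the wild type SVZ libraries. Whether cultures were pooled is not stated in the labels.

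EGFL7 is a secreted protein with EGF-like domains, known best from endothelial cells and the vessel wall. It can bind Notch receptors, and in neural stem cells it has been studied as a modulator of Notch signalling, the pathway by which neighbouring progenitors keep each other undifferentiated. The Egfl7 gene also carries the microRNA miR-126 within its body.

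Egfl7 (NCBI gene 353156) spans chr2:26581028-26592682 on the plus strand of GRCm38. Its microRNAs are shown because they lie within the gene that sorted the libraries. Their mature sequences in RefSeq (GRCm38.p6) follow, 5′ to 3′, with the seed, bases 2 to 8, in capitals.
mmu-miR-126a-3p: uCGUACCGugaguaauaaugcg
mmu-miR-126b-3p: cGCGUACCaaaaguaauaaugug
mmu-miR-126b-5p: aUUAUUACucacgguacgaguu
The first lies at chr2:26591402-26591423 on the plus strand, and the others at chr2:26591363-26591385 and chr2:26591399-26591420 on the minus strand. The 3 seeds differ from one another. Mir126a and Mir126b were listed at 0 RPKM in all 20 libraries, which were made by capture of exons, so that the microRNAs could not be compared between the sets.

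Egfl7 stood at 2.86 RPKM in the library labelled KO2, 1.73 in WT1 and 2.99 in WT2. It stood at 0.094 RPKM in KO1 and at 0 in KO3 and in the library labelled WT3. Thus the libraries labelled KO2 and WT3 went against their labels, and the other 4 went with them. The smallest whole read numbers that fit these values were 30, 17 and 31 reads in the first set and 1, 0 and 0 in the second, where 3 reads would amount to between 0.265 and 0.307 RPKM. The values nearest to the thresholds were 1.73 and 0.094 RPKM, and the sets lay 1.76 apart on the log2(RPKM + 1) scale.

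In the hippocampus, which took no part in forming the sets, Egfl7 followed the labels. It was listed at 0 RPKM in all 7 knockout libraries. It reached 1.34, 1.07 and 0.566 RPKM in HC1 wild type and 1.16, 1.05, 1.59 and 0.996 RPKM in HC2 wild type. The difference in HC2 was 1.13 lower in the knockout on the log2(RPKM + 1) scale (two-sided exact permutation test, n = 4 and 4, p = 0.0286, the smallest this design allows). In HC1 it was 0.97 lower (exact p = 0.1, the smallest that 3 against 3 allows), and the adjusted value over the 8 exact tests made was 0.133 for both. In the limma fit over all 20 libraries, whose spread takes in the SVZ libraries that went against their labels, the adjusted p was 0.988 in HC2, and it was 0.0371 with the HC2 groups fitted alone. Donor numbers recur between the groups, but a number does not always mark 1 animal, since HC1 lists wild type numbers 2 and 3 as female whereas HC2 lists both as male. With that limit, wild type number 6 stood at 0 RPKM in the SVZ (WT3) and at 0.996 in HC2, and knockout number 4 at 0.094 in the SVZ (KO1) and at 0 in HC2.

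**Figure D1:**
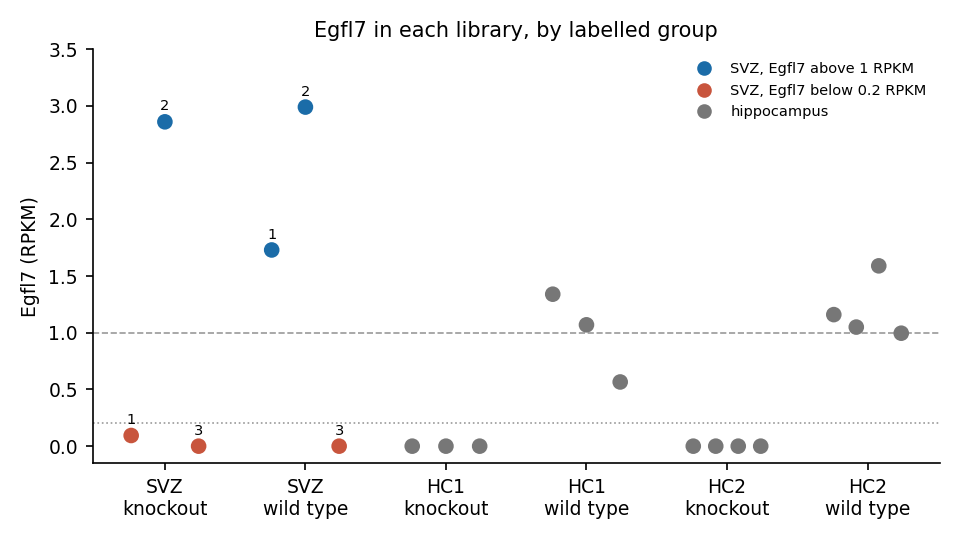
Egfl7 level (RPKM, vertical axis) in each of the 20 libraries, arranged by labelled group, 1 point per library; blue and red mark the SVZ sets and digits give SVZ replicate numbers. Dashed and dotted lines mark 1 and 0.2 RPKM. SVZ knockout replicate 2 lies at 2.86 RPKM and SVZ wild type replicate 3 at 0, whereas the hippocampal groups do not overlap.

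The spheres of both sets expressed neural progenitor genes at high level. Nes, an intermediate filament of neural progenitors, ranged from 453 to 563 RPKM, and Fabp7, a fatty acid binding protein of radial glia, from 4810 to 8790. Several genes that define cell types outside the neural lineage were at 0 in all 6 libraries: the endothelial genes Cdh5 and Cldn5, 12 of 19 microglia and macrophage markers and 3 of 6 blood markers. Others were not. Tagln, an actin-binding protein of contractile cells, was at 38 RPKM in WT1, 15.2 in KO3 and 2.18 to 4.04 in the other 4, and the pericyte and fibroblast list summed to 55.5, 153 and 56.5 RPKM in the set above and to 87.3, 119 and 60.9 in the set below. Foxj1, a regulator of motile cilia, was at 6.89 to 16.2 RPKM. Of 24 endothelial markers 5 passed the filter described below, their list summed to 90.6, 125 and 105 RPKM in the set above and to 116, 118 and 98.5 RPKM in the set below, and 0 of the 5 separated the sets. Most of each sum came from Mfsd2a, at 55.9 to 87.8 RPKM. Whether endothelial cells were a source of the Egfl7 transcript was not tested.

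The library labelled KO2 stood apart from the other 5, and results that rest on it are given with and without it. On the first principal component of log2(RPKM + 1) of the kept genes, which held 37.2% of the variance, it lay at 31.5, while WT1, of the same Egfl7 set, lay at -21.5 at the other end. Its Apoe, a lipoprotein of astrocytes, was at 26.4 RPKM against 124 to 325 in the others. The water channel Aqp4 was at 6.99 RPKM against 20.2 to 53.7. Mical2, an actin oxidoreductase, was at 54.6 RPKM against 8.96 to 23.6, and Col18a1, a basement membrane collagen, at 61.0 against 2.9 to 22.9. The library labelled WT3 lay at 24.4 on the second component (21.3%). The sets were not separated on either component. On component 5 (12.0%) they did not overlap, at -3.4, -14.4 and -3.38 in the set above and at 3.74, 18.6 and -1.1 in the set below.

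**Figure D2:**
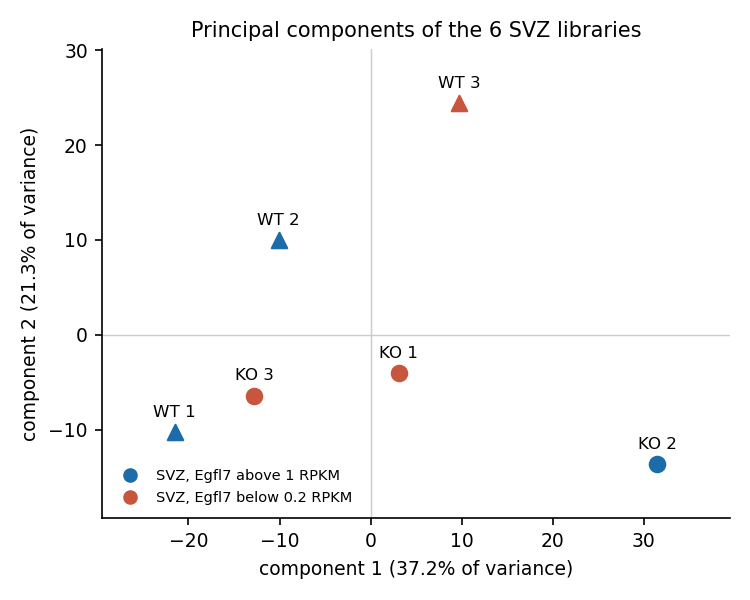
First and second principal components of log2(RPKM + 1) in the 6 SVZ libraries, with the share of variance on each axis; blue is the set above 1 RPKM of Egfl7, red the set below 0.2, circles are labelled knockout and triangles labelled wild type. KO2 lies at 31.5 and WT1 at -21.5 on the first component although both belong to the set above 1 RPKM.

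Pairs of libraries were no closer within an Egfl7 set than between sets. Pearson's r of log2(RPKM + 1) across genes had a median of 0.9814 over the 6 pairs within sets and 0.982 over the 9 pairs between sets. Genes are not independent replicates, and these values only describe how alike the libraries were. The closest pair was KO3 and WT1, of different sets, with 150 genes at least 2-fold apart, and the farthest was the library labelled KO2 and WT1, of 1 set, with 601. No library was a copy of another.

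Genes that reached 1 RPKM in 3 or more of the SVZ libraries were kept, 13171 without Egfl7 itself. Of these, 434 (3.3%) were higher in all 3 libraries of the set below 0.2 RPKM than in any of the set above, and 448 (3.4%) were lower in all 3, together 6.7%. Sorted by the genotype labels instead, 430 genes (3.26%) were higher and 598 (4.54%) lower in all knockout libraries, 7.81% in all. The 2 ways of sorting share libraries, so that these counts stand side by side without a test. The differences were small. The median absolute difference between the sets over all kept genes was 0.0858 on the log2(RPKM + 1) scale, and 7 of the genes without overlap were higher and 12 lower by at least 2-fold on that scale. Of the genes without overlap, 54 had a gap between the sets wider than the widest range within a set. Leaving out 1 library makes overlap rarer by construction, and the counts then lay between 899 (without WT3) and 1273 (without KO2) for higher and between 852 (without WT3) and 1482 (without KO2) for lower genes. Each of the 6 omissions moved both counts by over 1.5 times.

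Short RNA genes and genes that code for no protein made up most of the large differences. Of 11918 protein-coding genes, 392 were higher and 381 lower without overlap, but 2 and 2 of them by at least 2-fold. Among 166 microRNA and snoRNA genes, 5 were higher and 12 lower, 3 and 10 of them by that much. The median absolute difference over the 166 was 0.525, beside 0.0858 over all kept genes. A few reads can carry a short gene past the filter: 3 reads of Rnu7, a small nuclear RNA, amounted to 3.72 RPKM in KO1. Among the genes counted above as without overlap, 21 passed the filter through 1 set alone and could not but differ, 9 of them higher and 12 lower. Mobp, C8g, Xlr3c and Cmbl, described below, belong to these 21. The genes without overlap were spread over the genome, from 4.23% of kept genes on chromosome 18 to 8.46% on chromosome 3, with 0 of 3 on Y. Among genes that start within 5 Mb of Egfl7, 6 of 136 kept genes (4.41%) separated the sets.

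The glial filament gene Gfap, the astrocyte marker at chr11:102887336-102897212, had the largest difference among the higher genes named by the rule. It stood at 0.204 RPKM in the library labelled KO2, 1.16 in WT1 and 0.768 in WT2, and at 6.42 in KO1, 1.5 in KO3 and 2.23 in the library labelled WT3. The sets did not overlap, but KO1 alone was at more than the other 2 libraries of its set together, and the difference of 1.23 (pooled SD within sets 0.65) became 2.06 with a pseudocount of 0.1. Clu, which encodes the secreted chaperone clusterin and is also rich in astrocytes, was at 12.8, 21.8 and 17.6 RPKM in the set above and at 25.3, 23.5 and 30.4 in the set below, a difference of 0.60. In bulk RNA, fewer cells of a type and less RNA per cell cannot be told apart.

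These astrocyte genes moved within a list that did not follow the sets. Of 21 kept astrocyte markers, 2 (Gfap and Clu) were higher without overlap and 0 lower, and 16 had a higher mean in the set below 0.2 RPKM, with a median of 0.105 beside 0.0062 over all kept genes. The summed level of the list was 1650, 3710 and 3150 RPKM in the set above and 2720, 3320 and 2640 in the set below. Its lowest value belonged to the library labelled KO2. Without that library the median became -0.237 and 3 of 21 markers had the higher mean in the set below, so that the direction of the list rested on KO2. Gfap itself kept its direction, which its lack of overlap fixed beforehand, with every library of the set below above WT1 and WT2.

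**Figure D3:**
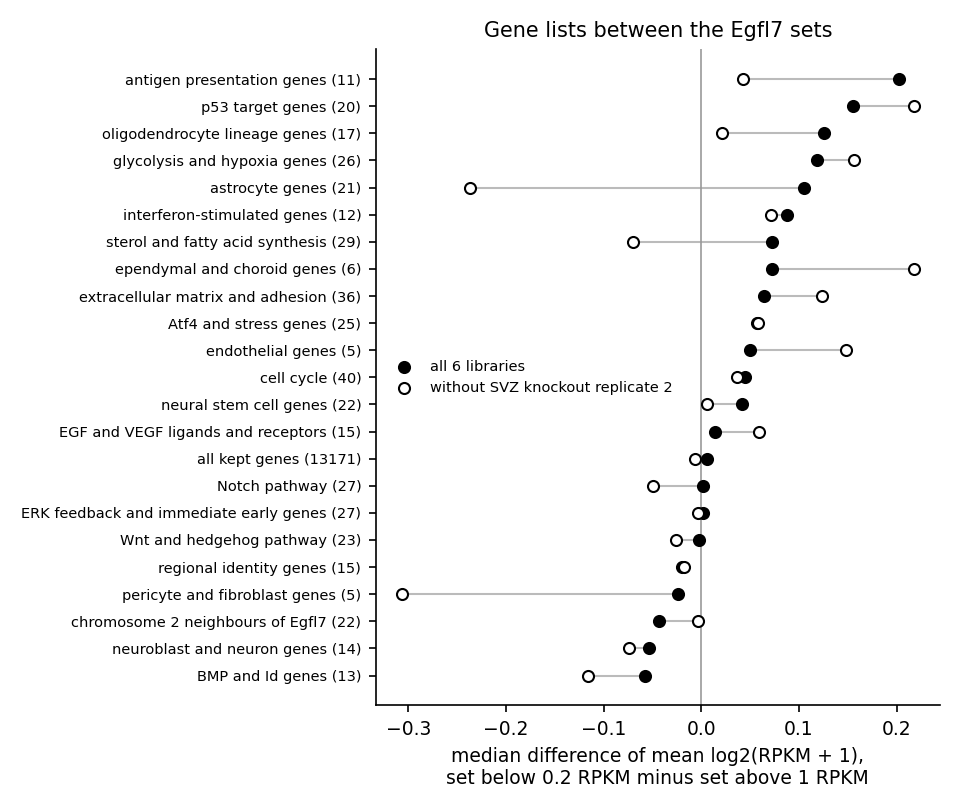
Median difference between the Egfl7 sets (below 0.2 minus above 1 RPKM, log2(RPKM + 1) scale, horizontal axis) for each gene list with 5 or more kept genes, their number in brackets; filled points use all 6 libraries and open points leave out SVZ knockout replicate 2. The astrocyte list moves from 0.105 to -0.237 and the antigen presentation list from 0.203 to 0.0428.

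Among stem cell genes, Sox2, Nes and Egfr overlapped between the sets. Of the 22 kept genes, 1 was higher without overlap and 0 lower, and the median was 0.0417 (0.00587 without KO2). The oligodendrocyte lineage gave 1 separated member. Mobp, a myelin protein gene, was at 0.865, 0.800 and 0.632 RPKM against 1.02, 1.36 and 2.26, and was 1 of 17 oligodendrocyte lineage genes (median 0.126, 0.0215 without KO2). Mobp passed the filter through the set below alone, so that it could not but differ. Among 14 neuroblast and neuron genes and 15 regional genes, 0 separated the sets.

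Signalling genes tied to Egfl7 by textbook knowledge overlapped between the sets. Of 27 kept Notch pathway genes, 0 separated the sets, 14 had the higher mean in the set below, and the median was 0.00212 (-0.0498 without KO2, with 12 of 27). The receptor Notch1 was at 77.0, 48.8 and 60.1 RPKM in the set above and at 61.9, 46.6 and 66.2 in the set below, a difference of -0.08 that became 0.09 without KO2 and 0.07 without KO3. The target Hes5, a transcriptional repressor, was at 5.80, 14.1 and 15.4 RPKM against 16.1, 16.1 and 6.81. The target Nrarp, a feedback regulator of Notch, was at 9.48, 35.1 and 31.8 against 31.2, 35.6 and 25.7. The 2 low Hes5 values belonged to the libraries labelled KO2 and WT3, and the low Nrarp value to KO2, not to an Egfl7 set. Heyl, another Notch target, was higher in all 3 libraries of the set below (0.079, 0.511 and 0.400 against 0.706, 0.561 and 0.881 RPKM), but did not reach the filter and was named after its values were seen. Of 15 EGF and VEGF ligands and receptors 0 separated the sets, and the paralogue Egfl8 was at 0.532, 0.578 and 0.447 RPKM against 0.790, 0.448 and 0.329.

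Among kept ERK, BMP, Wnt and hedgehog genes, 2 were lower and 0 higher without overlap, where 3.4% and 3.3% of all kept genes were. Of 27 ERK feedback and immediate early genes, 1 was lower and 0 higher: Egr1, an immediate early transcription factor, at 138, 143 and 136 RPKM in the set above and at 120, 136 and 118 in the set below, with the nearest values of the sets equal at this precision. Of 13 BMP and Id genes, 1 was lower: Bmpr2, the type II BMP receptor, at 47.9, 43.0 and 44.6 RPKM against 40.0, 38.8 and 41.0, a difference of -0.17. Of 23 Wnt and hedgehog genes 0 separated the sets.

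In the glycolysis, cell cycle, sterol and stress lists 1 or 2 genes each separated the sets, by small amounts. Over all kept genes 6.7% did. Pgk1, a glycolytic kinase, was at 236, 204 and 208 RPKM in the set above and at 271, 245 and 258 in the set below. Gapdh, the next enzyme upstream, was at 60.6, 54.1 and 60.5 against 67.4, 63.0 and 79.9. These were 2 of 26 kept glycolysis and hypoxia genes, of which 23 had the higher mean in the set below (median 0.119), where 52.1% of all kept genes did. Without KO2, 19 of 26 did (median 0.156), beside 48.1% of all kept genes. The mean log2(RPKM + 1) of the list was highest in WT3 (5.75), and KO2 (5.64) lay above KO1 (5.59) and KO3 (5.56) of the other set. Pgk1 and Gapdh have processed copies in the genome, so that their reads may be split. Rrm1, a subunit of ribonucleotide reductase, was 1 of 40 cell cycle genes (267, 267 and 273 RPKM against 305, 283 and 287), and Acly, the enzyme that makes cytosolic acetyl-CoA, was 1 of 29 sterol and fatty acid genes (263, 263 and 271 against 291, 286 and 287). The chaperone Dnajb1 differed by 0.20 and was 1 of 25 Atf4 and stress genes.

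Matrix genes lay on both sides. Sparc, a secreted matrix glycoprotein, was at 200.0, 172 and 195 RPKM in the set above and at 222, 222 and 270 in the set below, and Vcan, the proteoglycan versican, at 63.4, 72.6 and 65.8 against 52.6, 57.5 and 48.4. They were 1 higher and 1 lower of 36 kept genes, where 3.3% and 3.4% of all kept genes were. All 11 kept antigen presentation genes had the higher mean in the set below (median 0.203), but 0 separated the sets and 6 of 11 had it without KO2 (median 0.0428). B2m, the light chain of class I molecules, was at 74.6 RPKM in the library labelled KO2 and at 108 to 148 in the other 5. Of 20 p53 targets 0 separated the sets, but 16 had the higher mean in the set below, with a median of 0.155. Without KO2 the number was also 16, with a median of 0.218. Of all kept genes, 52.1% had the higher mean there, and 48.1% without KO2. The mean log2(RPKM + 1) of the p53 list was highest in WT3 (6.05), and KO3 (5.78) lay below KO2 (5.9) and WT2 (5.84) of the other set. Of 12 interferon-stimulated genes 0 separated the sets. The ependymal list (6 kept), the pericyte and fibroblast list (5), the microglia list (3), the complement list (3) and the short RNA list (4) also held 0 such genes. Of 22 kept neighbours of Egfl7 on chromosome 2, 1 was lower: C8g, a complement component, at 1.77, 1.32 and 1.47 RPKM against 0.977, 0.734 and 0.915. C8g passed the filter through the set above alone, so that it could not but differ. The mitochondrially encoded genes were not matched.

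Several genes outside these lists had gaps wider than the range within the sets. Erc1, a scaffold of vesicle release sites at chr6:119570796-119849739, was at 17.6, 18.3 and 16.6 RPKM in the set above and at 27.2, 24.9 and 26.4 in the set below. Its gap of 0.42 on the log2(RPKM + 1) scale was wider than the widest range within a set, 0.14. Vamp2, a vesicle SNARE protein, was at 27.1, 23.8 and 27.5 RPKM against 37.5, 41.7 and 37.8, with a gap of 0.43 and a range of 0.20. Sh3bgrl2 was at 5.05, 4.12 and 5.57 RPKM against 7.60, 7.77 and 7.56. Septin1, a filament-forming GTPase, was at 1.73, 1.54 and 1.83 against 2.53, 2.53 and 2.47. In the lower direction Cep55, a midbody protein of the last step of cell division, was at 32.2, 32.5 and 30.5 RPKM against 24.6, 25.6 and 24.4, with a gap of 0.25 and a range of 0.09.

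Other higher genes varied more within the sets. Gng7, a G protein gamma subunit, was at 1.85, 2.39 and 1.12 RPKM in the set above and at 3.67, 4.12 and 4.80 in the set below, which fits 5, 6 and 3 reads against 10, 11 and 14. Ccdc109b, a subunit of the mitochondrial calcium uniporter, was at 0.331, 0.087 and 1.07 against 2.35, 1.14 and 2.62 RPKM, a difference of 1.04 that became 2.15 with a pseudocount of 0.1. Scml4, a Polycomb-related gene, was at 6.09, 5.31 and 4.30 against 8.58, 6.55 and 11.8. The remaining genes of the largest differences, Srxn1, Azin2, Hecw2, Uqcr10 and Rps29, differed by 0.63 to 0.83, and in each the nearest libraries of the sets lay within 0.11 of one another.

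Lower genes with the largest differences included several that reads may not tell apart. Xlr3c, of a multicopy gene family on the X chromosome (chrX:73254538-73265571), was at 1.26, 4.68 and 4.28 RPKM in the set above and at 0.114, 0.697 and 0.106 in the set below, a difference of -1.67 (-3.22 with a pseudocount of 0.1). Rps2, a ribosomal protein gene with many copies, was at 296, 300.0 and 245 RPKM against 85.3, 168 and 185. Pcdhga8, which shares its constant exons with the other gamma protocadherins, was at 3.63, 6.41 and 4.96 against 2.26, 2.23 and 1.94. Values of these 3 genes are uncertain for that reason. Gadd45a, a growth arrest and DNA damage gene without such copies, was at 2.97, 3.19 and 2.21 RPKM against 1.24, 1.42 and 1.74 (19, 19 and 14 reads against 8, 9 and 12). Strbp owed its difference of -0.64 to WT2, at 28.3 RPKM against 9.16 and 9.51 in the rest of its set. Rbm46 likewise rested on WT1, at 3.75 RPKM against 1.33 and 1.29. Cmbl, Zfp493, Rcan2 and Tmem170 differed by -0.59 to -0.62. Xlr3c and Cmbl passed the filter through the set above alone, so that they could not but differ.

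**Figure D4:**
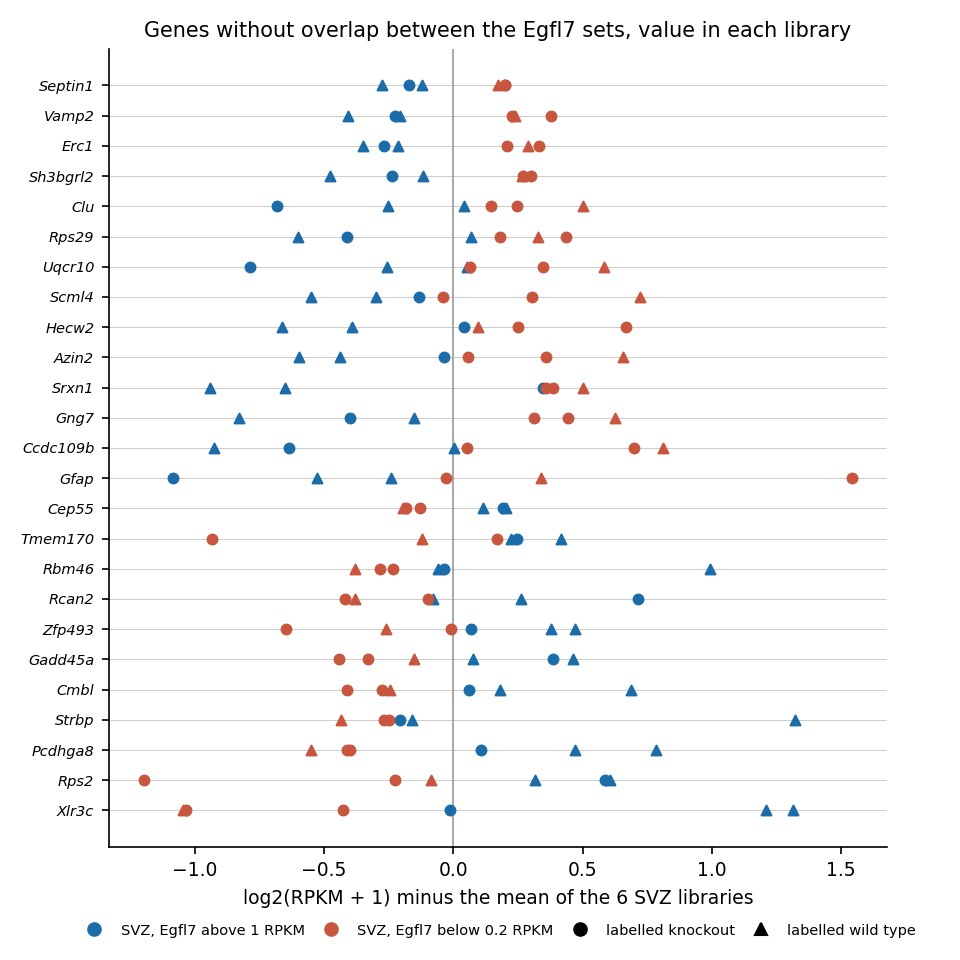
Level of the genes with the largest differences and widest gaps between the Egfl7 sets in each SVZ library, as log2(RPKM + 1) minus the mean of the 6 libraries (horizontal axis), 1 gene per row; blue is the set above 1 RPKM of Egfl7, red the set below 0.2, circles are labelled knockout and triangles labelled wild type. Erc1, Vamp2 and Cep55 form 2 tight clusters, whereas Strbp is carried by WT2 and the highest Gfap value belongs to KO1.

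The hippocampal libraries had no part in the sets, and their Egfl7 levels followed the labels, so that the genes separating the SVZ sets could be looked up between knockout and wild type there. Of the 434 genes higher in the set below, 199 (45.9%) had the higher mean in the knockout in HC1, 254 (58.5%) in HC2 and 216 (49.8%) in the mean of the contrasts, where 48.5%, 49.4% and 48.7% of all kept genes did. Of the 448 lower genes, 231 (51.6%), 210 (46.9%) and 221 (49.3%) had the higher mean in the knockout. The largest departure, 58.5% in HC2, was not seen in HC1. These shares are over genes and carry no test.

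Tested gene by gene with limma, 0 of the 882 genes passed an adjusted p of 0.05 in HC1, HC2 or the mean of the contrasts, where 2 (0.0122%), 4 (0.0244%) and 5 (0.0305%) of 16403 tested genes did. Of the 13171 kept genes, from which the 882 come, 1 passed in HC1 and 0 in HC2 and in the mean. The 0 of 882 was thus fixed beforehand in HC2 and in the mean, and says nothing there about the separated genes. At an unadjusted p under 0.05 in the mean of the contrasts, 9 of the 434 higher genes were higher and 14 lower in the knockout (5.3%), and 12 of the 448 lower genes were higher and 9 lower (4.69%), beside 5.68% of all kept genes and 5.91% of all tested genes. The 30 kept genes of smallest p in the mean of the hippocampal contrasts were a list added after the data were seen. Of these 30, 15 had the same sign in the Egfl7 sets and 21 by SVZ label. Only Prps2, an enzyme of nucleotide synthesis, and Scml4 separated the sets in the same direction, and 0 did so in the opposite one. These 2 of 30 stand beside 6.7% of all kept genes that separated the sets. Sorted by SVZ label, 2 of the 30 were without overlap in the same direction and 3 in the opposite one, beside 7.81% of all kept genes.

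Scml4 and Gfap were looked at further after their values were seen. Scml4 was at 6.30, 2.76 and 4.81 RPKM in HC1 knockout and at 2.74, 3.24 and 2.09 in wild type. In HC2 it was at 10.4, 3.93, 9.17 and 2.80 RPKM in knockout and at 3.71, 1.02, 0.250 and 1.10 in wild type. Knockout and wild type overlapped in both rounds (two-sided exact permutation test, difference 0.57, p = 0.2 in HC1 and 1.61, p = 0.0571 in HC2, adjusted over the 8 exact tests 0.229 and 0.133). Gfap ran the other way in HC1, at 2.31 to 4.27 RPKM in knockout and 5.47 to 149 in wild type (exact p = 0.1, adjusted 0.133), and spanned 1.32 to 536 RPKM in HC2 without separating the genotypes (exact p = 0.829). By label, 14.6% of kept genes did not overlap in HC1 and 0.979% in HC2. These shares cannot be set against each other, since groups of 3 lack overlap more readily than groups of 4. In HC1 sex also differs with genotype. Gng7, higher in the SVZ set below, was lower in HC1 knockout, at 2.34 to 5.92 RPKM against 7.36 to 13, and Rps2, lower in the SVZ set, was higher there, at 104 to 161 against 55.3 to 60.6. Neither passed limma (adjusted p = 0.976 for both), and both overlapped in HC2. Erc1 and Cep55 overlapped between knockout and wild type in HC1 and in HC2.

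The genotype labels of the SVZ libraries were tested as labelled. limma called 2 of 16403 genes (0.0122%) between SVZ knockout and wild type, and 379 (2.31%) at an unadjusted p under 0.05. Egfl7 itself differed by -0.46 (adjusted p = 1.0), by -1.08 without the library labelled KO2 and by -1.03 without the library labelled WT3 (adjusted p = 1.0 in each). Gm15032, a pseudogene at chrX:142622473-142625562, was at 18.2, 21 and 23 RPKM in KO1, KO2 and KO3 and at 6.01, 7.42 and 4.30 in WT1, WT2 and WT3 (difference 1.67 ± 0.21 SE, n = 3 and 3, limma adjusted p = 0.00366). Rnu7, the U7 small nuclear RNA of histone mRNA processing, was at 2.48, 3.77 and 3.81 RPKM in the knockout libraries and at 0 in all 3 wild type libraries (adjusted p = 0.000377). It rested on 2 to 3 reads per library, so that the size of its difference depends on the pseudocount and is not given as a fold. Both genes followed the label in all 6 libraries, also in the 2 libraries whose Egfl7 level did not. They were named because they were called between these labels, so that this follows from the choice and is no check of the labels.

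Their behaviour in the hippocampus was mixed. Gm15032 was at 20.1, 22.9 and 24.9 RPKM in HC1 knockout and at 14.0, 7.65 and 14.5 in HC1 wild type (limma adjusted p = 0.552), and at 0 to 0.282 in HC2. Rnu7 was at 0 in all HC1 libraries and at 1.59 to 5.08 RPKM in HC2, where the genotypes overlapped. The SVZ and HC2 differences of Rnu7 differed (limma adjusted p = 0.000497). For Gm15032, near 0 in all HC2 libraries, that comparison only restates the SVZ difference. Both SVZ calls held with any 1 SVZ library left out, and 5 genes were called without KO3. With a pseudocount of 0.1 Gm15032 was lost (adjusted p = 1). With the SVZ groups fitted alone both were lost, at adjusted p = 0.19 for Gm15032 and 0.0534 for Rnu7. The membrane complement regulator Cd59a, lower in the knockout over HC1 and HC2 (difference -1.12, limma adjusted p = 0.0203), was at 0.419, 0.225 and 0.422 RPKM in the SVZ set above and at 0, 1.06 and 0.194 in the set below, which fits 0 to 5 reads in each library. Its hippocampal call was lost with a pseudocount of 0.1 (limma adjusted p = 0.26) and (adjusted p 0.0515 to 0.0992) when 1 of these libraries was left out: replicate 2 or 3 of the HC1 knockout, any HC1 wild type, replicate 7 or 8 of the HC2 knockout, and replicate 3 of the HC2 wild type.

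**Figure D5:**
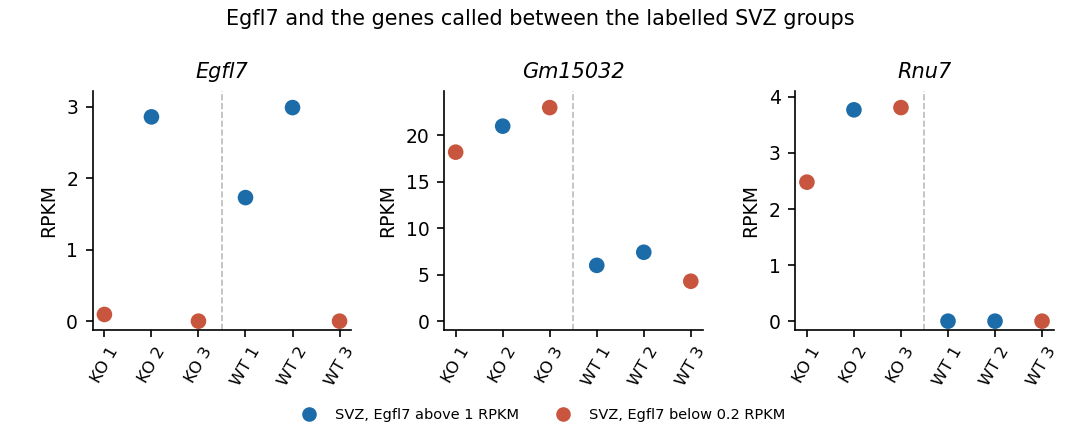
Level (RPKM, vertical axes) of Egfl7, Gm15032 and Rnu7 in the 6 SVZ libraries, 1 point per library; the dashed line divides labelled knockout from labelled wild type, and colours mark the Egfl7 sets. Gm15032 is at 18.2 to 23 RPKM in all libraries labelled knockout and at 4.30 to 7.42 in all labelled wild type, while Egfl7 is not divided by the line. Gm15032 and Rnu7 were chosen as genes called between these labels.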

How the data were processed

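RNA was sequenced from mouse neurospheres in 20 libraries, and this account rests on the 6 from the SVZ. Per the labels' protocols, stranded libraries of total RNA without ribosomal RNA were captured with mouse exon baits and read as pairs of 100 bases. FastQC 0.11.5 and DESeq2 are named in the submitters' processing notes, with mm10 (GRCm38) as the build; the aligner, the read counter and how strand was used: not given in the sources used here. Per the file headers, the values the authors deposited are linear total RPKM per gene. The deposited tables held 36724 genes and, after a filter of the authors, 19709 genes with equal values. Positions are those deposited, on GRCm38. Gene symbols turned into dates by a spreadsheet were restored through RefSeq by NCBI number.

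Levels were compared as log2(RPKM + 1), computed from the deposited values. The SVZ sets were described by value, difference of means and overlap. Labelled groups were tested with limma 3.58.1 in R 4.3.3: 6 group means, 20 libraries, 14 residual degrees of freedom, 16403 genes that reached 0.5 RPKM in 3 or more libraries, trend and robust, Benjamini-Hochberg adjustment over all of them, threshold 0.05. p-values measure the spread between these libraries. This fit held no term for donor, although mouse numbers recur between groups. Single hippocampal genes had two-sided exact permutation tests. Total reads are not known; the worth of 1 read was read from ratios of low values, which put the relative depth of the SVZ libraries at 1.0 to 1.16 of WT1, with 19109 to 19586 genes above 0. Reads per low gene are the smallest whole numbers that fit within 0.15 of a read; counting error only is covered by them.

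The members, the 27 gene lists and the tests were chosen with earlier results of these data known. The genes named are Egfl7, Egfl8, Notch1, Vegfd (Figf) and Cd59a; the 10 largest differences and 5 widest gaps per direction among genes without overlap and with a mean of at least 1 RPKM, leaving out predicted, short RNA, mitochondrial and pseudogenes; up to 2 such members per list and direction; and genes called in the SVZ by label. Vegfd stood at 0 to 0.316 RPKM in the SVZ. Genes with copies elsewhere may share reads. Some genes that this rule names are left out of the text.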

Additional observations from a re-analysis of the deposited data

Results flagged for a closer look

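In 8 cases 1 library lay far from the rest of its HC2 group (gap to the nearest library beyond Dixon's 95% value) among 86 gene and group combinations looked at, and chance flags about 1 in 20 groups. For Vegfd (Figf), the highest wild type library was at 0.039 RPKM with the others at 0. Gng7 was at 5.34 RPKM and Vamp2 at 16.0 RPKM in the highest knockout library. In the wild type, Acly was highest at 255 RPKM, Pcdhga8 highest at 16.1 RPKM and Rnu7 highest at 5.08 RPKM. Cmbl stood out in both groups, with a knockout library at 10.7 RPKM and a wild type library at 1.16 RPKM.

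The knockout effect by label differed between the SVZ and HC2 for both genes called in the SVZ, by 2.54 for Rnu7 and by 1.74 for Gm15032 on the log2(RPKM + 1) scale (limma, difference of the contrasts, adjusted p = 0.000497 and 0.0307). Gm15032 was at 0 to 0.282 RPKM in every HC2 library, where no knockout effect could show, so that its value restates the SVZ difference. Rnu7 rests on 2 to 3 reads in SVZ knockout and 0 in SVZ wild type libraries, and its SVZ difference moved from 2.11 to 5.08 with a pseudocount of 0.1. The SVZ and HC2 libraries also differ in culture day and round of spheres, which cannot be told apart from region.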

How the results depend on the processing

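The counts of genes separating the Egfl7 sets (434 higher, 448 lower) rose to 656 and 767 with no filter on low values, since more genes were looked at, and lay at 899 to 1273 higher and 852 to 1482 lower with 1 library left out. They stayed within 1.5 times under the mean filter, the authors' gene list and median-ratio scaling, and also with protein-coding genes only, an alternative chosen after seeing the data. Among named genes whose sets did not overlap, no difference changed sign under the alternatives run. With 1 library left out or another pseudocount, the lack of overlap fixes this sign beforehand, so that it lends these genes no support. Within the spread, the sign changed with 1 library left out for Notch1 (from -0.08 to as much as 0.09), Egfl8 (-0.01 to 0.08), Gm15032 (0.3 to -0.11) and Cd59a (about 0, from -0.31 to 0.21). In all, 331 differences of named genes moved by less than the spread within the sets and 13 by more, all 13 with a pseudocount of 0.1. Of 25 list medians, 2 moved by more than that spread without KO2, an alternative chosen after seeing the data: microglia genes to -0.00134 and ependymal genes to 0.218. The astrocyte, sterol, Notch, ERK and complement medians changed sign within it, to -0.237, -0.0697, -0.0498, -0.00378 and -0.0732. Genes called in the SVZ by label numbered 1 with a pseudocount of 0.1, 0 with only the groups compared and 2 to 5 with 1 library left out. In HC1 (2 called) they numbered 7 without a filter and 1 to 2 with 1 library left out. In HC2 (4 called) they numbered 7 without a filter and 4 to 26 with 1 library left out, the 26 without wild type replicate 2. In the mean of both (5 called) they numbered 4 to 19. Egfl7 was called in HC2 with only those groups compared (adjusted p = 0.0371) and in no other alternative there. The cause of these shifts was not tested. Replicate numbers are shared in the SVZ and in HC1 but did not pair the libraries (correlations of same-numbered deviations from 0.00726 to -0.259 in the SVZ and from -0.0286 to -0.115 in HC1), and with the replicate number as a block, fitted on the groups compared, 0 genes were called in each. HC2 shares no numbers. The depth limits genes of a few reads, Egfl7, Cd59a and Rnu7 among them.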
